A study of Mus musculus with 14 samples.

Results

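The genes described here are 9 genes of the oligodendrocyte lineage, chosen by name from the 39017 gene identifiers of the count table: Mbp, Mog, Mag, Mobp, Opalin, Cnp, Olig1, Olig2 and Pdgfra. All 9 had enough counts to be among the 21298 genes tested. Their levels were compared between RNA bound to ribosomes of hippocampal parvalbumin (PV) neurons and total hippocampal RNA, and then between groups of mice that differed in their response to chronic social defeat stress (CSDS).

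Oligodendrocytes are the glial cells that wrap axons of the central nervous system in myelin. They arise from precursor cells that carry Pdgfra, the receptor for platelet-derived growth factor A, and the transcription factors Olig1 and Olig2 act in the lineage from the precursor onward. Of the myelin genes, Mbp encodes the myelin basic protein that compacts the sheath, and Mobp another small protein of compact myelin. Mog and Mag encode immunoglobulin-family proteins of the outer and the axon-facing surface of the sheath. Opalin encodes a membrane glycoprotein of mature oligodendrocytes, and Cnp an enzyme of the non-compacted cytoplasmic channels. None of the 9 is a marker of PV interneurons, whose axons can themselves be myelinated.

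All mice were adult males that carried PV-Cre together with a Cre-dependent EGFP-L10a transgene, which puts a green fluorescent tag on ribosomes of cells with Cre. Translating ribosome affinity purification (TRAP) pulls down tagged ribosomes from a hippocampal homogenate, so that their mRNA can be sequenced. Non-defeated mice were housed in pairs without defeat, and defeated mice were called susceptible or resilient from their social interaction ratio with an unfamiliar aggressor, under 1 for susceptible. There were 4 non-defeated, 4 resilient and 3 susceptible TRAP libraries, each from both hippocampi of 1 mouse, and 3 input libraries of total RNA from non-defeated mice before TRAP. The design text calls the input total RNA, while its molecule label reads translating RNA, and it was treated here as total RNA. Libraries are named here by group and the number in the sample name.

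Library totals ran from 64110214 to 94726962 counts, and the lowest count of any of the 9 genes in any library was 93 (Pdgfra). Levels are given as normalized CPM, read counts divided by the library total after scaling by TMM factors. Pvalb, the marker of the targeted neurons, stood at 1464 CPM in non-defeated TRAP against 25.4 CPM in input. Whether the input and the TRAP libraries came from the same mice is not given in the sources used here, and ribosome-bound against total RNA, and tagged against all cells, cannot be told apart in this comparison. In bulk RNA, fewer cells of a type and less RNA per cell cannot be told apart either.

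The stretches upstream of Mobp, Opalin, Mag and Cnp are shown because these are the 4 of the 7 genes with a usable RefSeq promoter in which the SOX core letters ACAAAG were found on either strand. SOX10, a factor of this family, acts on myelin genes. The letters were present in 16.5% of 32851 RefSeq mouse promoters of the same length (250 bases before the start). The second core form ACAATG (10.7% of promoters) was found in 1 of the 7, Olig2, where it starts 68 bases before the RefSeq start and so inside the GENCODE transcript, which begins 93 bases before that start. The letters CTGGCAC, the core read by the myelin regulator MYRF, were present in 4.19% of promoters and in those of Mag and Cnp. The E-box CAGCTG (13% of promoters), which reads the same on both strands, was found in none of the 7. No matches shared bases. Each line is written 5′ to 3′ on the strand of the gene (GRCm38.p6) and ends before the first annotated GENCODE base, and capitals mark the matches. Mobp lies on the plus strand (chr9:120149492-120149706), Opalin on the minus strand (chr19:41077114-41077363), Mag on the minus strand (chr7:30914874-30915113) and Cnp on the plus strand (chr11:100574689-100574903).
Mobp: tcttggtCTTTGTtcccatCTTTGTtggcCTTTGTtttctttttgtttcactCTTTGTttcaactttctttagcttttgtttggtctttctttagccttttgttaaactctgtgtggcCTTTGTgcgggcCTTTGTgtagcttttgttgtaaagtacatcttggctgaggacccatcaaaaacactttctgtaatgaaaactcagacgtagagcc
Opalin: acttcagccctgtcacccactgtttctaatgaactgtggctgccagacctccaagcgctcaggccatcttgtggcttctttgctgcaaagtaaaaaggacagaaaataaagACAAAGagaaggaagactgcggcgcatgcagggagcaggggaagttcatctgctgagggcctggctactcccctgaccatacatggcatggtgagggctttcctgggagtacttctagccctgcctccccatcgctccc
Mag: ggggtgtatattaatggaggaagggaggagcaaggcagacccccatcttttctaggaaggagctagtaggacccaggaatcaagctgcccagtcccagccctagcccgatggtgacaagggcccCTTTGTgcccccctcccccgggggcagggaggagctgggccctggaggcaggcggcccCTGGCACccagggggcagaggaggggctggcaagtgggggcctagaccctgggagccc
Cnp: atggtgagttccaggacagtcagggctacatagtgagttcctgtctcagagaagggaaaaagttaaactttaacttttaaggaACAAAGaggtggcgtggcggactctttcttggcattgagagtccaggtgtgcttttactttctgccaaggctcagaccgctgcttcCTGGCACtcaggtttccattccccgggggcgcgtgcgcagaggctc
The Mobp stretch held 6 matches to the SOX core, all on the opposite strand, where they read CTTTGT, the first starting 243 and the last 120 bases before the RefSeq start. Mag and Cnp each held 1 SOX core match and 1 MYRF match, and Opalin 1 SOX core match. A match describes the letters only, and binding was not measured here.

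All 9 genes were lower in non-defeated TRAP than in input with an adjusted p under 0.05 (edgeR quasi-likelihood test, Benjamini-Hochberg over all genes tested), while 27.6% of all genes tested were lower by the same rule. All 9 had every non-defeated TRAP library below every input library, which held in that direction for 32.5% of genes tested. The size of the difference varied widely between them. Mog, Opalin and Mobp kept 14.4%, 14.9% and 16.3% of their mean input level, Olig1, Olig2 and Pdgfra 21.3%, 23.5% and 24.6%, and Mbp, Mag and Cnp 34.9%, 38.9% and 55.2%. The median log2 fold change of the 9 genes was -2.09, against -0.04 for all genes tested. The plot of levels by library shows this gap for each gene.

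**Figure D1:**
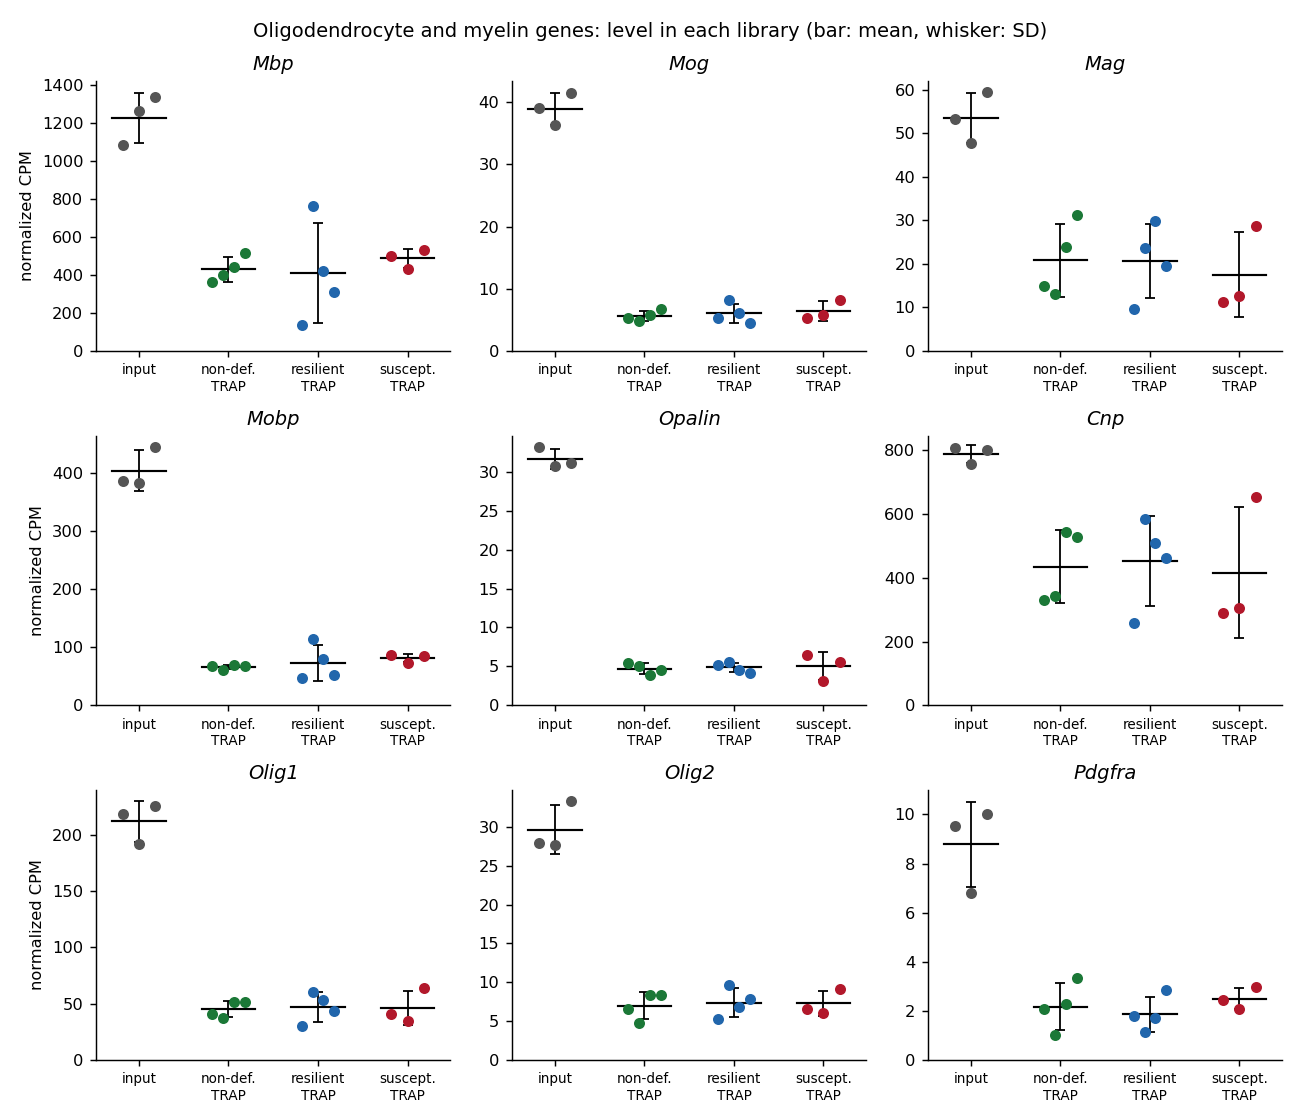
Normalized CPM (linear axis from 0) of each of the 9 genes in 3 input, 4 non-defeated TRAP, 4 resilient TRAP and 3 susceptible TRAP libraries, one point per library, with the group mean (line) and SD (whisker). Every non-defeated TRAP library lies below every input library for all 9 genes, and the 3 TRAP groups overlap for each gene except Mobp, where susceptible libraries (72.8 to 86.6 CPM) lie above non-defeated ones (60.2 to 68.9 CPM).

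Mog (chr17:37010743-37023398 in GRCm38, minus strand) stood at 39.1, 36.3 and 41.5 CPM in input 12, 13 and 14. In non-defeated TRAP 1, 6, 9 and 11 it stood at 5.30, 4.75, 5.72 and 6.72 CPM. The groups were far apart and each was tight, with a log2 fold change of -2.79 ± 0.20 (SE) and an adjusted p of 4.9e-08 (edgeR). Mog ranked 259 from the lowest of 21298 genes.

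Opalin (chr19:41061710-41077113, minus strand) was the gene with the fewest counts in TRAP among the myelin genes, at 226 to 472 counts a library. It measured 33.2, 30.7 and 31.1 CPM in input and 5.42, 4.99, 3.89 and 4.55 CPM in non-defeated TRAP. The log2 fold change was -2.75 ± 0.20 (SE; adjusted p = 8.2e-08, edgeR), close to that of Mog.

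Mobp (chr9:120149707-120181484, plus strand) stood at 386, 383 and 445 CPM in input and at 68.5, 60.2, 68.9 and 67.0 CPM in non-defeated TRAP. Its log2 fold change was -2.61 ± 0.23 (SE; adjusted p = 3.6e-07, edgeR). Relative to their mean, its non-defeated libraries differed among themselves less than those of any other member did, with an SD of 4.04 around 66.2 CPM (n = 4).

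Mbp (chromosome 18, 82475146 to 82585637 in GRCm38, plus strand) had the highest CPM of the 9 in input. It stood at 1081, 1262 and 1337 CPM in input and at 363, 396, 439 and 514 CPM in non-defeated TRAP. The groups did not overlap, and the log2 fold change was -1.52 ± 0.36 (SE; adjusted p = 0.0025, edgeR). The Mbp locus carries 16 annotated transcripts. As background, its long golli transcripts are also made outside oligodendrocytes, in neurons among other cells, and a count per gene does not separate them from the myelin transcripts.

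Mag (chr7:30899176-30914873, minus strand) stood at 53.2, 47.7 and 59.4 CPM in input and at 14.9, 13.1, 23.9 and 31.2 CPM in non-defeated TRAP. Its TRAP libraries spread more than 2-fold among themselves. The log2 fold change was -1.36 ± 0.38 (SE; adjusted p = 0.0074, edgeR), and the exact permutation test of mean log2 CPM gave p = 0.0571 (2-sided, 4 against 3 libraries).

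Cnp (chr11:100574904-100591729, plus strand) fell least. It stood at 807, 757 and 801 CPM in input and at 329.8, 342, 542 and 527 CPM in non-defeated TRAP, so that libraries 9 and 11 lay well above libraries 1 and 6. The log2 fold change was -0.86 ± 0.30 (SE; adjusted p = 0.023, edgeR). The call was lost in 4 of the 7 fits that left out 1 library: the adjusted p was 0.063 without non-defeated 1, 0.065 without non-defeated 6, 0.057 without input 12 and 0.056 without input 14. Exons of Cnp overlap those of Dnajc7 on the opposite strand. Dnajc7, a heat-shock protein co-factor, rose in TRAP (152 CPM in input and 188 CPM in TRAP, log2 fold change 0.31, adjusted p = 0.00046, edgeR), and reads from the shared stretch cannot be told apart unless strand was used in counting, which is not given in the sources used here.

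The lineage genes lay close together. Olig1 (chr16:91269772-91271933, plus strand) stood at 218, 192 and 226 CPM in input and at 41.0, 37.3, 51.0 and 51.8 CPM in non-defeated TRAP, a log2 fold change of -2.23 ± 0.23 (SE; adjusted p = 1.7e-06, edgeR). Olig2 (chr16:91225457-91228677, plus strand) stood at 28, 27.6 and 33.3 CPM in input and at 6.51, 4.70, 8.32 and 8.34 CPM in non-defeated TRAP, a log2 fold change of -2.09 ± 0.23 (SE; adjusted p = 2.7e-06, edgeR). Pdgfra (chr5:75152292-75198215, plus strand) was the lowest of the 9, at 9.52, 6.81 and 10.04 CPM in input and 2.05, 1.01, 2.26 and 3.34 CPM in non-defeated TRAP. Its log2 fold change was -2.03 ± 0.34 (SE; adjusted p = 0.00017, edgeR). Gm15966, whose exons overlap Olig1 on the opposite strand, had 0 counts in every library, and exons of Pdgfra overlap Mir7025 on the same strand. For each of the 3 lineage genes the lowest input library was more than 2-fold above the highest TRAP library.

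Per length of union exons, levels can be set side by side between genes. In input the order of RPKM was Cnp (217 ± 7.53, SD, n = 3), Mbp (145 ± 15.6), Olig1 (98.1 ± 8.32), Mobp (59.1 ± 5.11), Mog (22.9 ± 1.52), Mag (13.1 ± 1.43), Olig2 (11.7 ± 1.26), Opalin (10.7 ± 0.446) and Pdgfra (0.877 ± 0.173). Between libraries the ranges of Mag and Olig2 overlapped, though within each input library Mag was the higher. Mag stood at 13.1 against 11.1, 11.7 against 10.9 and 14.6 against 13.2 RPKM in input 12, 13 and 14. Olig2 and Opalin were neighbours within their spread, with Opalin the higher in input 12 and Olig2 in input 13 and 14. Every input library had more Mag (11.7 to 14.6 RPKM) than any had Opalin (10.4 to 11.3 RPKM). In non-defeated TRAP, Cnp stayed first at 120 ± 31.6 RPKM (SD, n = 4) and Mbp second at 50.6 ± 7.73 RPKM, while Mobp stood at 9.66 ± 0.589 and Opalin at 1.60 ± 0.223. There Mag averaged 5.10 ± 2.06 RPKM and Mog 3.30 ± 0.489 RPKM. Within each non-defeated TRAP library Mag was the higher, while in input Mog was the higher. Mag stood at 3.66, 3.22, 5.88 and 7.66 RPKM in non-defeated TRAP 1, 6, 9 and 11. Mog stood at 3.11, 2.79, 3.36 and 3.94 RPKM in the same libraries. These orders within libraries were not tested. The union length of Mbp includes exons of all its annotated transcripts, which lowers its RPKM.

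Whether members changed by unequal amounts was tested on ratios within each library, which do not depend on scaling between libraries. The log2 ratio of Cnp to Mbp was 0.63 higher in non-defeated TRAP than in input, that of Olig1 to Mbp 0.71 lower (-0.71) and that of Olig2 to Mbp 0.59 lower (-0.59). In each of these 3 the groups did not overlap, and the exact permutation p was 0.0286 (2-sided, adjusted p = 0.048 over 5 ratios), the smallest that 4 against 3 libraries allow. All 3 share Mbp and so are not independent, and the adjusted p fell under 0.05 only because 3 ratios stood at this smallest p together. With 1 library left out the smallest p possible lies above 0.05, so that none could pass (adjusted p of 0.11 to 0.22, exact permutation). These p-values are therefore no check of the result. The log2 differences of the 3 ratios then ran from 0.53 to 0.73, from -0.81 to -0.60 and from -0.67 to -0.45. The ratios of Opalin to Pdgfra (-0.64, exact p = 0.257) and of Mbp to Pdgfra (0.58, exact p = 0.200) overlapped between the groups.

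The lists of other oligodendrocyte genes were lower as well, with precursor genes called in both directions. Beside the 27.6% of genes tested that were lower, 27.4% were higher. Of 30 other myelin and mature oligodendrocyte genes, 28 fell and none rose, from Tmem125 (log2 fold change -2.84, adjusted p = 1.9e-06, edgeR) to Qdpr (-0.33, adjusted p = 0.0046), a pteridine reductase. Klk6 (-0.77) and Enpp2 (-1.06) did not pass. All 7 myelin lipid enzymes fell, from Fa2h (-2.75), which hydroxylates fatty acids of myelin lipids, to Gal3st1 (-1.15), the sulfatide-making sulfotransferase. Of 9 genes of newly formed oligodendrocytes 7 fell, Gpr17 the most (-2.15), a receptor of cells leaving the precursor state, while Itpr2 (-0.16) and Tcf7l2 (-0.22) did not pass. The median log2 fold changes were -1.87, -1.24 and -1.28. Tcf7l2 varied widely within groups, at 10.95, 7.84 and 74.2 CPM in input 12, 13 and 14. In non-defeated TRAP 1, 6, 9 and 11 it stood at 3.44, 3.32, 66.8 and 33.03 CPM. With this spread the test cannot tell whether Tcf7l2 fell, and the cause of the spread was not tested.

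Of 13 precursor genes 8 fell, 2 rose and 3 did not pass, with a median log2 fold change of -0.93. Sox8, a SOX transcription factor that mature oligodendrocytes and astrocytes also express, fell most (-2.03, adjusted p = 0.00011, edgeR). C1ql1, a secreted complement-like protein, rose from 7.14, 6.54 and 6.58 CPM in input to 35.6, 26.4, 15.4 and 13.1 CPM in non-defeated TRAP 1, 6, 9 and 11 (log2 fold change 1.74, adjusted p = 0.00089). Sox6, a transcription factor that PV interneurons also express, rose from 9.38, 8.28 and 10.6 CPM to 33.99, 33.5, 22.1 and 20.3 CPM (1.54, adjusted p = 3.5e-05). Cspg4, Vcan and Ptprz1 did not pass, at log2 fold changes of -0.08, -0.33 and 0.02. Pdgfra, at -2.03, lay at the low end of this list, near Sox8.

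Among 11 ligands and axonal partners, which neurons as well as glia make, 2 rose, 4 fell and 5 did not pass. Cadm4, an adhesion protein of the axon-glia contact, rose most (1.02, adjusted p = 0.0092, edgeR), followed by Cntnap1 (0.65, adjusted p = 0.0041), a protein of the axon beside the node. Pdgfc, a growth factor related to the ligand of Pdgfra, fell most (-1.44, adjusted p = 0.00037), and Pdgfa, that ligand itself, stood at 26.4 CPM in TRAP and 26.8 CPM in input (-0.02, adjusted p = 0.91).

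For comparison, all 6 PV neuron markers rose, from Gad2 (1.5) to Pvalb (5.85). All 6 excitatory neuron markers fell, from Neurod6 (-2.47) to Camk2a (-0.91), and so did all 8 microglia markers, from Tmem119 (-2.72) to Csf1r (-0.61). Of 8 astrocyte markers 6 fell, Aqp4 the most (-2.09), while Aldoc (-0.27) and Aldh1l1 (-0.34) did not pass. Of 6 endothelial markers 2 rose, Cldn5 (1.22) and Ly6c1 (1.16), none fell, and Pecam1 stood at -0.36. Of 8 mural and fibroblast genes 2 fell, Dcn the most (-1.29), and Kcnj8 stood at -0.16. Of 4 choroid plexus and ependymal genes 2 fell, Clic6 the most (-1.85), and Foxj1 rose (1.56). The plot of log2 fold changes by list sets the members beside these lists.

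The level left varied among libraries of the same group. As a percent of the input mean, Mbp ran from 11.3% in resilient 3 to 62.1% in resilient 5, and Cnp from 32.6% in resilient 3 to 82.8% in susceptible 10. Opalin stayed between 9.67% and 20.5% and Mog between 11.5% and 20.9%. Resilient 3 was the lowest of the 11 for 5 members (Mbp, Mag, Mobp, Cnp and Olig1). Resilient 5 was the highest for 3 (Mbp, Mobp and Olig2) and susceptible 10 for 3 (Mog, Cnp and Olig1).

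**Figure D2:**
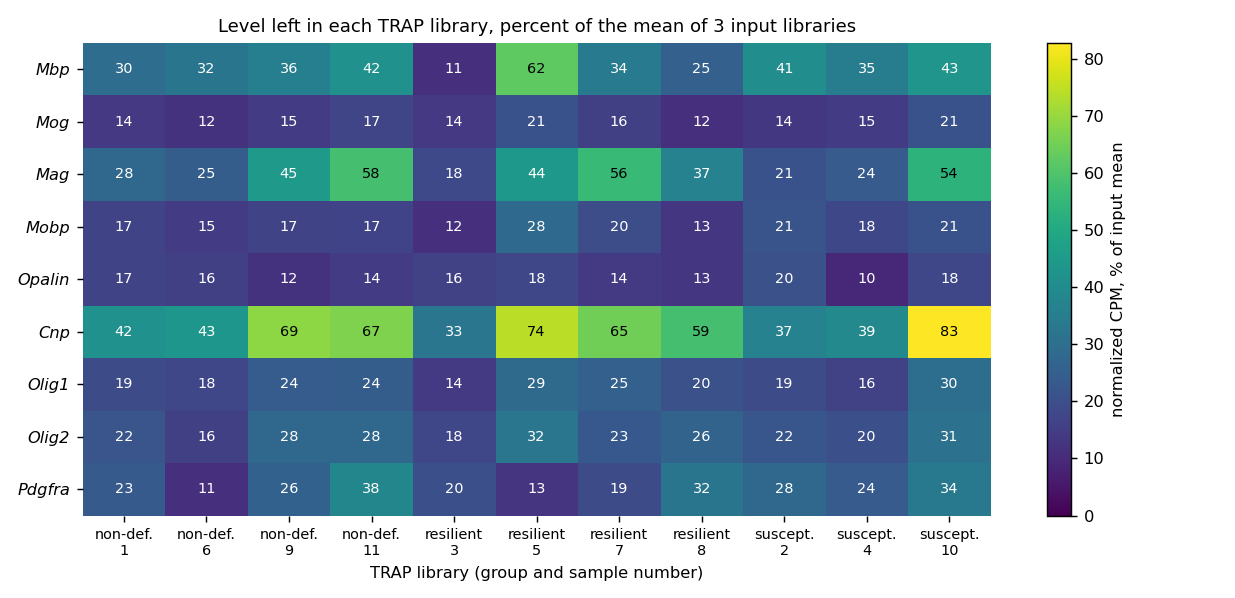
Normalized CPM of each member in each of 11 TRAP libraries as a percent of its mean in 3 input libraries (color scale from 0, rounded percent in each cell). Cnp keeps 32.6% to 82.8% and Mag 18.1% to 58.4%, while Mog and Opalin stay at or under 20.9% in every library, and the columns of resilient 5 and susceptible 10 are the brightest.

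Astrocyte, excitatory neuron and microglia markers moved with these libraries, while endothelial markers did not. The summed level of the 8 astrocyte markers ran from 985 to 1480 CPM in non-defeated, from 989 to 1647 CPM in resilient and from 992 to 1756 CPM in susceptible TRAP. It was highest in susceptible 10 and, within the resilient group, lowest in resilient 3 and highest in resilient 5. The 6 excitatory neuron markers summed to 478 CPM in resilient 3 and to 1015 CPM in resilient 5, the lowest and the highest of the 11 TRAP libraries. The 8 microglia markers summed to 37.98 CPM in resilient 3, to 49.98 CPM in resilient 5 and to 52.3 CPM in susceptible 10. The 6 PV markers summed to 3088 CPM in susceptible 10, the lowest of the 11, and no marker of these lists was at 0 in any library. By contrast, the 6 endothelial markers summed to 22.4 CPM in resilient 3 and to 12.7 CPM in resilient 5, the lowest of the resilient group. The part of these markers in the members' levels was not tested.

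Mbp was set against the 8 other members and 3 marker genes across the 11 TRAP libraries, in log2 CPM. Pearson's r passed over these 11 relations for Mobp (r = 0.87, permutation p = 0.00057, adjusted p = 0.0063, Spearman's rho = 0.79, permutation p = 0.0058) and Olig1 (r = 0.75, permutation p = 0.0037, adjusted p = 0.020, rho = 0.67, permutation p = 0.027). Without resilient 3 and 5, the libraries farthest from the median of Mbp, r was 0.76 for Mobp and 0.46 for Olig1, so that the relation with Olig1 rested on those libraries. Within the 6 libraries numbered 1 to 6, r was 0.93 for Mobp and 0.84 for Olig1. That range includes both resilient 3 and resilient 5, so these values are no check apart from those libraries. No value was computed for the 5 libraries numbered 7 to 11. Opalin (r = 0.10, permutation p = 0.75) and Pdgfra (r = -0.03, permutation p = 0.94) did not pass, nor did Pvalb (r = -0.06, permutation p = 0.89), the microglia gene C1qa (r = 0.64, adjusted permutation p = 0.074) or the astrocyte gene Aqp4 (r = 0.57, adjusted permutation p = 0.10). By Spearman's rho, 7 of the 11 passed: Mobp, Mog, Olig1, Olig2, Cnp, Aqp4 and C1qa. The plot of Mbp against Mobp, Cnp and Opalin shows the libraries.

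**Figure D3:**
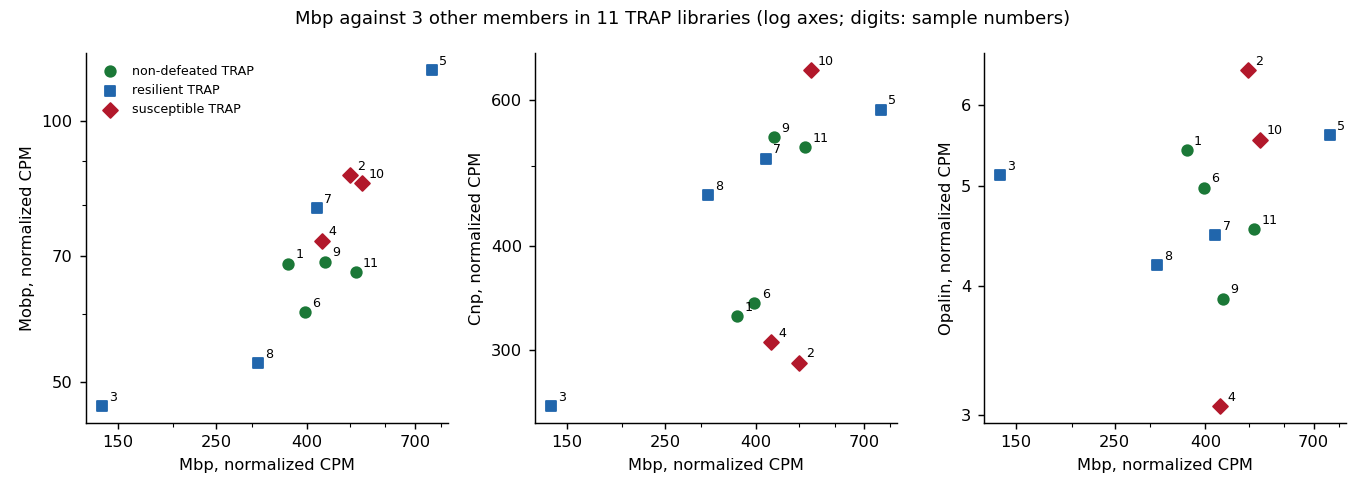
Mbp (x axis) against Mobp, Cnp and Opalin (y axes), normalized CPM on log axes, in 11 TRAP libraries colored by group, digits giving the sample number. Mobp rises with Mbp (r = 0.87), Opalin does not follow it (r = 0.10), and in the Cnp panel the 5 libraries numbered 7 to 11 (461 to 653 CPM) lie above all libraries numbered 1 to 6 except resilient 5 (585 CPM).

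Mag, Cnp and Olig1 had the highest pairwise correlations of the members across the 11 libraries, with r of 0.95 between Mag and Cnp, 0.95 between Cnp and Olig1 and 0.90 between Mag and Olig1, given as a description. Olig2 followed, with r of 0.77 with Mag, 0.84 with Cnp and 0.87 with Olig1. Levels of several members differed with the number in the sample name. Mag averaged 14.2 ± 4.96 CPM (SD) in the 6 libraries numbered 1 to 6 and 26.6 ± 4.80 CPM in the 5 numbered 7 to 11, and Cnp 352 ± 118 and 539 ± 70.6 CPM. Olig1 averaged 40.7 ± 10.6 and 52.6 ± 7.23 CPM, Olig2 6.45 ± 1.72 and 8.07 ± 0.875 CPM and Pdgfra 1.75 ± 0.573 and 2.61 ± 0.643 CPM. Mobp (74.9 ± 23.4 and 70.5 ± 12.4 CPM), Mbp (432 ± 203 and 443 ± 87.5 CPM) and Opalin (5.11 ± 1.14 and 4.53 ± 0.626 CPM) had near-equal means. The astrocyte gene Aldh1l1 averaged 30.1 ± 18.2 and 58.7 ± 5.13 CPM in the same ranges. The labels do not say what the number stands for and give no cut between 6 and 7. Each stress group holds libraries of both ranges, though the susceptible group has only 1 (susceptible 10) in 7 to 11. All 3 input libraries are numbered 12 to 14. In TRAP against input, the number and the kind of library therefore cannot be told apart.

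None of the 9 members differed between stress groups in TRAP at an adjusted p under 0.05 (edgeR). Over all genes tested, 0% passed by this rule for resilient against non-defeated, 0.0376% for susceptible against non-defeated and 1.89% for susceptible against resilient. At an unadjusted p under 0.05 the members' count was also 0 in each comparison, against 4.38%, 13.3% and 20.9% of genes tested. By DESeq2 none passed after adjustment, and 1 did before it, Mobp in susceptible against non-defeated. The members' median log2 fold changes were 0.05, 0.09 and 0.05, against 0.00, 0.01 and 0.00 for all genes tested. Both comparisons against non-defeated mice share the same 4 control libraries, and all 3 comparisons share libraries with each other.

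Mobp came nearest to a difference. It stood at 47.0, 115, 79.3 and 52.7 CPM in resilient 3, 5, 7 and 8 and at 86.6, 72.8 and 84.8 CPM in susceptible 2, 4 and 10. The susceptible libraries all lay above the non-defeated ones (60.2 to 68.9 CPM), which held for 4.21% of genes tested in this comparison. The log2 fold change was 0.30 with an interval of 2 standard errors from -0.15 to 0.74 (adjusted p = 0.57, edgeR). The exact permutation test gave p = 0.0286 (2-sided), the smallest these group sizes allow, in 1 of 27 such tests of the members between stress groups. Over all alternatives of the fit the adjusted p ran from 0.27 to 0.79.

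Mbp stood at 138, 762, 421 and 311 CPM in resilient 3, 5, 7 and 8 and at 499, 431 and 530.1 CPM in susceptible 2, 4 and 10. The resilient libraries held both the lowest and the highest value of the 11, and the groups overlapped. Susceptible against resilient gave a log2 fold change of 0.25 with an interval from -0.47 to 0.97 (adjusted p = 0.74, edgeR). Without resilient 5 it was 0.75 (adjusted p = 0.18) and without resilient 3 it was -0.033 (adjusted p = 0.95). That of Mobp, 0.15 with all libraries, was 0.45 (adjusted p = 0.15) and -0.014 (adjusted p = 0.98) in the same fits.

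Mog stood at 5.36, 8.12, 6.13 and 4.49 CPM in resilient TRAP and at 5.28, 5.80 and 8.16 CPM in susceptible TRAP. Opalin stood at 5.13, 5.61, 4.48 and 4.19 CPM and at 6.49, 3.06 and 5.55 CPM. For both, the groups overlapped in all 3 comparisons. Intervals for susceptible against resilient were -0.30 to 0.48 for Mog and -0.35 to 0.46 for Opalin on the log2 scale, so differences of about this size were not detectable with these libraries.

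Mag stood at 9.69, 23.7, 29.8 and 19.6 CPM in resilient TRAP and at 11.2, 12.7 and 28.7 CPM in susceptible TRAP, and Cnp at 257, 585, 510.4 and 461 CPM and at 289.7, 306 and 653 CPM. In both genes, susceptible 10 stood apart from susceptible 2 and 4. Susceptible against resilient gave -0.24 for Mag (interval -1.02 to 0.53, adjusted p = 0.77, edgeR) and -0.12 for Cnp (interval -0.72 to 0.47, adjusted p = 0.86). Without susceptible 10 these were -0.80 and -0.61, with an adjusted p of 0.23 and 0.19. Without susceptible 2 they were -0.0036 and 0.081, with an adjusted p of 0.998 and 0.93. Within the libraries numbered 1 to 6 the difference in mean log2 CPM was -0.35 for Mag and -0.38 for Cnp (2 libraries in each group). Within those numbered 7 to 11 it was 0.24 and 0.43, with susceptible 10 alone against 2 resilient libraries. This opposite direction rests on 1 library and so does not separate the 2 ranges.

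Olig1 stood at 29.9, 60.7, 53.5 and 43.2 CPM in resilient TRAP and at 40.6, 34.6 and 63.4 CPM in susceptible TRAP, and Olig2 at 5.23, 9.62, 6.78 and 7.78 CPM and at 6.60, 6.03 and 9.15 CPM. Their group means were nearly level: 45.3, 46.8 and 46.2 CPM for Olig1 and 6.96, 7.35 and 7.26 CPM for Olig2 in non-defeated, resilient and susceptible TRAP. Pdgfra stood at 1.77, 1.11, 1.70 and 2.82 CPM in resilient TRAP and at 2.45, 2.09 and 2.95 CPM in susceptible TRAP. Its log2 fold change for susceptible against resilient was 0.43, with an interval from -0.26 to 1.12 (adjusted p = 0.51, edgeR). The resilient and susceptible libraries overlapped for each of the 3 genes.

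**Figure D4:**
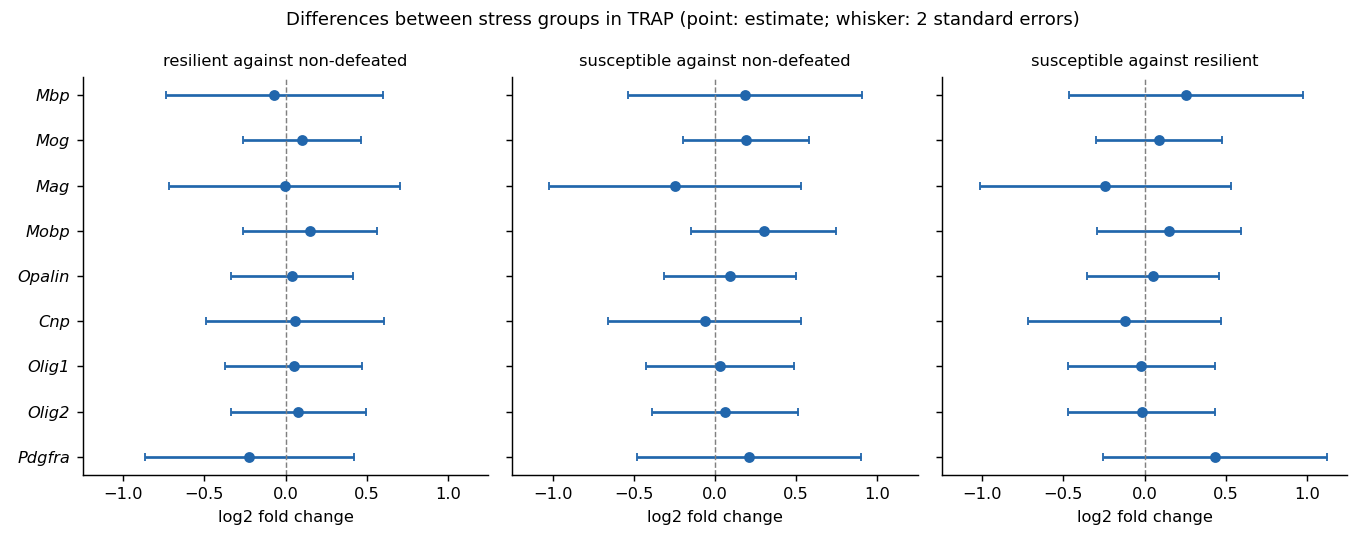
Log2 fold change of each member between TRAP groups (point) with 2 standard errors either side (whisker), for resilient (4 libraries) against non-defeated (4), susceptible (3) against non-defeated and susceptible against resilient. Every whisker crosses 0, and the estimates run from -0.25 (Mag) to 0.43 (Pdgfra).

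None of the 59 further oligodendrocyte genes passed an adjusted p of 0.05 in any of the 3 comparisons between stress groups (edgeR). At an unadjusted p under 0.05, resilient against non-defeated had 2 genes higher and none lower, susceptible against non-defeated had 4 higher and 1 lower, and susceptible against resilient had 5 higher and 2 lower, beside the backgrounds of 4.38%, 13.3% and 20.9% in either direction. Summed over the 59 genes, levels ran from 1314 to 1756 CPM in non-defeated, from 1213 to 1871 CPM in resilient and from 1371 to 2164 CPM in susceptible TRAP. Without susceptible 10, 2 of the 59 passed in susceptible against resilient, where 4.88% of all genes tested passed in the same fit, and they are named after their values were seen. Adamts4, a secreted protease of mature oligodendrocytes, had a log2 fold change of -1.06 (adjusted p = 0.041, edgeR) and Sox8 of -1.07 (adjusted p = 0.037).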

How the data were processed

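RNA of mouse hippocampus was sequenced in 11 TRAP and 3 input libraries. Per the study's methods, cDNA was made with SMART-Seq v4, and single reads were trimmed with fastp and aligned with STAR to mm10. The submitters' processing notes name STAR 2.5.3a and HTSeq, while the methods give a later STAR version. The annotation release and the strand setting of the counting are not given in the sources used here. The deposited values are the authors' unnormalized read counts, one column per sample and one row per gene, with 64110214 to 94726962 counts a library. Groups came from the treatment label.

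Of 39017 identifiers, 37693 were named from GENCODE M21 (GRCm38), which also gave positions and union exon lengths for RPKM. Counts were filtered with filterByExpr, scaled by TMM and tested with edgeR 4.0.16 (R 4.3.3, quasi-likelihood, 2-sided) in one model of 14 libraries, with Benjamini-Hochberg adjustment over 21298 genes and a threshold of 0.05. SE is the absolute log2 fold change divided by the square root of F. Single members and ratios were tested by exact permutation on log2 CPM (prior count 2), correlations by 100000 resamples. For non-defeated TRAP against input only, the edgeR procedure was tested on simulated data with known changes. The comparisons between stress groups were not tested in this way. Alternatives were RLE size factors, library totals, no filter, DESeq2 1.42.0, fewer libraries in the model, the sample number as a covariate, and leaving out each library. No replicate pair of libraries agreed within sampling noise.

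The 9 members and the gene lists were chosen with earlier results of these data known. Named from each further list were the genes with the highest and the lowest log2 fold change in non-defeated TRAP against input and any gene that passed between stress groups, and also Pvalb and the 8 genes outside the lists most correlated with the myelin members. Other names were added after values were seen. Upstream sequences are from RefSeq (GRCm38.p6) and matched 7 members. Mbp was left out, and Olig1 was not analysed here.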

Additional observations from a re-analysis of the deposited data

How the results depend on the processing

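All 9 members kept their direction in non-defeated TRAP against input in all 12 alternatives, and each kept an adjusted p under 0.05 except Cnp, as given above. Cldn5 lost its call without input 12 (adjusted p = 0.063), and with 1 library left out Kcnj8 ran from -0.31 to 0.0074, Pecam1 from -0.81 to 0.034 and Itpr2 from -0.31 to 0.032. Between stress groups no alternative called a member, while directions of these small differences changed. For resilient against non-defeated, Mag was 0.0017 with no filter and 0.15 with the sample number as covariate. With that covariate Cnp was 0.021 for susceptible against non-defeated. With library totals only, Olig1 was 0.0065 and Olig2 0.0028 for susceptible against resilient. Over the fits that left out 1 library, log2 fold changes for resilient against non-defeated ran from -0.56 to 0.22 (Mbp), -0.076 to 0.22 (Mog), -0.23 to 0.26 (Mag), -0.15 to 0.31 (Mobp), -0.039 to 0.12 (Opalin), -0.087 to 0.25 (Cnp), -0.10 to 0.21 (Olig1), -0.077 to 0.21 (Olig2) and -0.50 to 0.062 (Pdgfra). For susceptible against non-defeated they ran from -0.022 to 0.31 (Mog), -0.80 to 0.019 (Mag), -0.13 to 0.35 (Opalin), -0.55 to 0.14 (Cnp), -0.27 to 0.20 (Olig1), -0.14 to 0.18 (Olig2) and -0.031 to 0.50 (Pdgfra). For susceptible against resilient they ran from -0.033 to 0.75 (Mbp), -0.12 to 0.27 (Mog), -0.014 to 0.45 (Mobp), -0.17 to 0.31 (Opalin), -0.61 to 0.081 (Cnp), -0.32 to 0.15 (Olig1) and -0.22 to 0.14 (Olig2). The count of further oligodendrocyte genes called in susceptible against resilient ran from 0 to 2, and the count of correlations with Mbp called from 1 (without resilient 5) to 4 (without resilient 8 or without susceptible 2), against 2. The cause was not tested. Over all genes, 403 were called for susceptible against resilient, against 989 by DESeq2, 126 with no filter, 1 with TRAP libraries only, 0 with the 2 groups only and 1109 with the sample number as covariate, and from 6 (without resilient 8), 7 (without susceptible 2), 12 (without resilient 7), 26 (without resilient 3), 73 (without susceptible 4) and 196 (without resilient 5) to 1058 (without susceptible 10) with 1 library left out, so that the background of 1.89% is unstable; for susceptible against non-defeated 8 were called, 114 by DESeq2 and 0 to 6 with 1 library left out. No paired analysis was made. Whether input and TRAP libraries came from the same mice is not given in the sources used here, and the sample numbers do not settle it.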

Other observations

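Outside all lists, the 8 genes whose log2 CPM over the 11 TRAP libraries followed the mean of the 6 standardized myelin members most closely, of 15876 genes ranked, were Arhgef28 (r = 0.96), Wapl (r = 0.95), Efhd1 (r = 0.95), Gatm (r = 0.94), Taldo1 (r = 0.94), Gm15738 (r = 0.94), Kmt2c (r = 0.94) and Thoc2 (r = 0.92). These values describe 11 libraries that share differences in marker levels, and the highest of so many correlations are high by selection. Gatm, an enzyme of creatine synthesis, fell from 241 CPM in input to a mean of 56.8 CPM over TRAP libraries (non-defeated TRAP against input, log2 fold change -2.04, adjusted p = 2.7e-07, edgeR), and Efhd1 (-1.87, adjusted p = 8.9e-06), Arhgef28 (-0.87, adjusted p = 0.0099) and Taldo1 (-0.57, adjusted p = 0.0053) fell too. Wapl (-0.16), Gm15738 (-0.46), Kmt2c (-0.25) and Thoc2 (0.16) did not pass.

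Endothelial, mural and choroid plexus genes, which are no oligodendrocyte genes, had higher summed levels in susceptible than non-defeated libraries on average, while no single gene passed the adjusted test. The 6 endothelial markers summed to 7.64 to 14.1 CPM in non-defeated, 12.7 to 37.8 CPM in resilient and 20.3 to 33.7 CPM in susceptible TRAP, with Cdh5 at 0 in non-defeated 1. The 8 mural and fibroblast genes summed to 10.99 to 27.3, 15.6 to 30.4 and 22.2 to 31.1 CPM, and the 4 choroid plexus and ependymal genes to 204 to 341, 195 to 461 and 437 to 726 CPM. The mural difference was mostly that of Rgs5 (6.97 CPM in non-defeated and 12.2 CPM in susceptible TRAP), while Pdgfrb (1.58 and 1.03 CPM), Col1a1 (0.778 and 0.473 CPM) and Col1a2 (1.76 and 1.27 CPM) had the opposite direction, and the choroid plexus difference was mostly that of Ttr (213 and 466 CPM). None of their 18 genes had an adjusted p under 0.05 in susceptible against non-defeated, where the smallest was 0.069 for Ly6c1 (4.602 CPM in non-defeated and 14.9 CPM in susceptible TRAP, edgeR).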
